A study of Mus musculus with 11 samples.

Results

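Actin filaments, the proteins that bundle and tension them and the adhesions that anchor them form the part of the embryonic stem cell transcriptome described here, through 10 genes: the cytoplasmic actins Actb and Actg1, the adhesion proteins Tns3 and Vcl, the actin-binding proteins Flna, Tagln2, Tpm1 and Tpm4, the myosin light chain Myl9 and the secreted matricellular factor Ctgf. They were taken by name from the gene table of the series, in which 54838 Ensembl genes were counted, and they were selected on function and on their fold changes in these same libraries, which were known. All 10 were above the filter on low counts (more than 1 CPM, a read count scaled to the total of its library, in at least 4 libraries), which 16073 genes passed. Their levels and fold changes are therefore given as a description. Where the number of them past the threshold used for all genes is given, it restates that choice and tests nothing.

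Transcripts were measured by rRNA-depleted RNA-seq of the E14 mouse embryonic stem cell (ESC) line, 36 h after transfection of an siRNA. The study asked which transcripts depend on CMTR1, an mRNA cap methyltransferase that methylates the ribose of the first transcribed nucleotide. There were 3 libraries of a scramble control siRNA, 4 of CMTR1 siRNA 1 and 4 of CMTR1 siRNA 2, a different sequence against the same mRNA. All cells were of this single line, kept undifferentiated with LIF on gelatin, so every group shared line, medium and transfection, and the cells were analysed in bulk.

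The libraries held 6738478 to 8382318 reads in genes. The targeted transcript, Cmtr1, stood at 21.3, 21.7 and 17.9 CPM with the control siRNA, at 21.1, 21.3, 16.3 and 18.04 CPM in libraries labelled CMTR1 siRNA 1 and at 15.6, 16.8, 16.5 and 19.5 CPM in those labelled siRNA 2. These ranges overlapped, and neither siRNA passed the threshold for Cmtr1 (log2 fold change −0.09, SE 0.11, FDR 0.743 for siRNA 1; −0.25, SE 0.11, FDR 0.144 for siRNA 2, edgeR's quasi-likelihood test), so the siRNA groups are named here by their labels. The paper states that CMTR1 falls rapidly once the siRNA is transfected, and it lists western blots for both siRNAs. Protein is not measured in these libraries. All 10 ESC markers examined were above the filter; they summed to 2087 to 2203 CPM in control, 1763 to 1951 CPM with siRNA 1 and 1859 to 1943 CPM with siRNA 2, with both siRNA groups below control. Fibroblast markers summed to 39.3 to 48.9, 38.4 to 52.1 and 49.6 to 55.4 CPM in the same order, 6 of 10 above the filter. The sums for smooth muscle (5 of 7 above the filter) were 85.7 to 104.0, 99.3 to 106.1 and 93.9 to 111.4 CPM, and for primitive endoderm (6 of 7) 55.6 to 73.9, 51.2 to 70.05 and 51.2 to 61.2 CPM. No marker was at 0 in all 11 libraries; Lum, Postn and Fap, which mark fibroblasts, were at or below 0.142 CPM in each. The fibroblast sum in siRNA 2 libraries was thus above control, as were several genes described below. Its members did not move alike: Col1a1 went from a mean of 8.65 to 14.5 CPM, Col1a2 from 10.8 to 13.4 and Dcn from 1.80 to 3.94, while Col3a1 went from 1.58 to 0.596 and Pdgfra from 17.5 to 15.3. The part of other cell types in those differences was not tested.

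As background, actin monomers polymerise into filaments that tropomyosins coat, filamins cross-link and non-muscle myosin II slides. Integrin adhesions couple the filaments to the matrix through talin, vinculin and tensins. When monomeric actin is consumed, the coactivator MRTF is released to join the transcription factor SRF at CArG boxes, and tension also sends YAP to the TEAD factors. Many of these cytoskeletal genes are themselves SRF or YAP targets, and Ctgf is the classical YAP reporter. In ESCs, adhesion and cortical tension are known to change as cells leave the naive state.

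Sequences that bear on both routes were read from the RefSeq promoters of GRCm38.p6, which run from 250 bases before to 50 bases after each start and which matched 8 of the 10 genes (all but Actb and Ctgf, which are named only). The SRF motif, the CArG box, is shown because SRF is the textbook regulator of these genes. It was found, searching both strands, in Actg1, Vcl and Myl9, and in 535 of all 32851 promoters (1.63%). The windows below hold it in capitals, 5′ to 3′ on the strand of the gene, and lie at chr11:120348566-120348595 (minus strand), chr14:20929161-20929190 (plus) and chr2:156775293-156775322 (plus). The box starts 90, 227 and 161 bases before the transcription start.
Actg1: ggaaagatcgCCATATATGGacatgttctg
Vcl: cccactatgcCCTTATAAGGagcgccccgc
Myl9: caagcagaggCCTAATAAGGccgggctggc

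The 6-base TEAD motif (GGAATG, or CATTCC on the other strand) was found in Vcl, Flna, Tagln2 and Tpm1, and in 4817 of the 32851 promoters (14.7%). Those of Vcl and Tpm1 and the nearer of a pair in Tagln2 are shown with the motif in capitals, at chr14:20929243-20929272 (Vcl, plus), chr1:172500154-172500183 (Tagln2, plus) and chr9:67049252-67049281 (Tpm1, minus). The motif starts 143, 80 and 56 bases before the transcription start, and none of the windows overlaps a CArG box.
Vcl: gcccctcccttgGGAATGggggcggggcgg
Tagln2: taagcgctccagCATTCCacgcggcggcgc
Tpm1: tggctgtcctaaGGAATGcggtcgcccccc

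A match of letters is not a bound site, and no such motif was found in the Tns3 and Tpm4 promoter windows. The genes were taken in part as known SRF or YAP targets, so setting them beside all promoters tests nothing.

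In the control libraries each family shown had a leading isoform as counted (plot of family make-up). Levels between genes are compared here as CPM per kb of exon, a level per length. Actb gave 982 ± 25.4 CPM per kb (SD, n = 3) and Actg1 135 ± 8.67, so that Actb held 87.4% ± 0.50 of the actin family and Actg1 12.02% ± 0.42. The muscle actins were trace transcripts, and Acta2, the smooth muscle form, held 0.401% ± 0.090 of the family. Flna stood at 141 ± 10.0 CPM per kb. Tns3 held 84.0% ± 2.0 of the tensins and Tagln2 69.2% ± 1.5 of the transgelins, whose smooth muscle form Tagln held 24.5%.

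**Figure D1:**
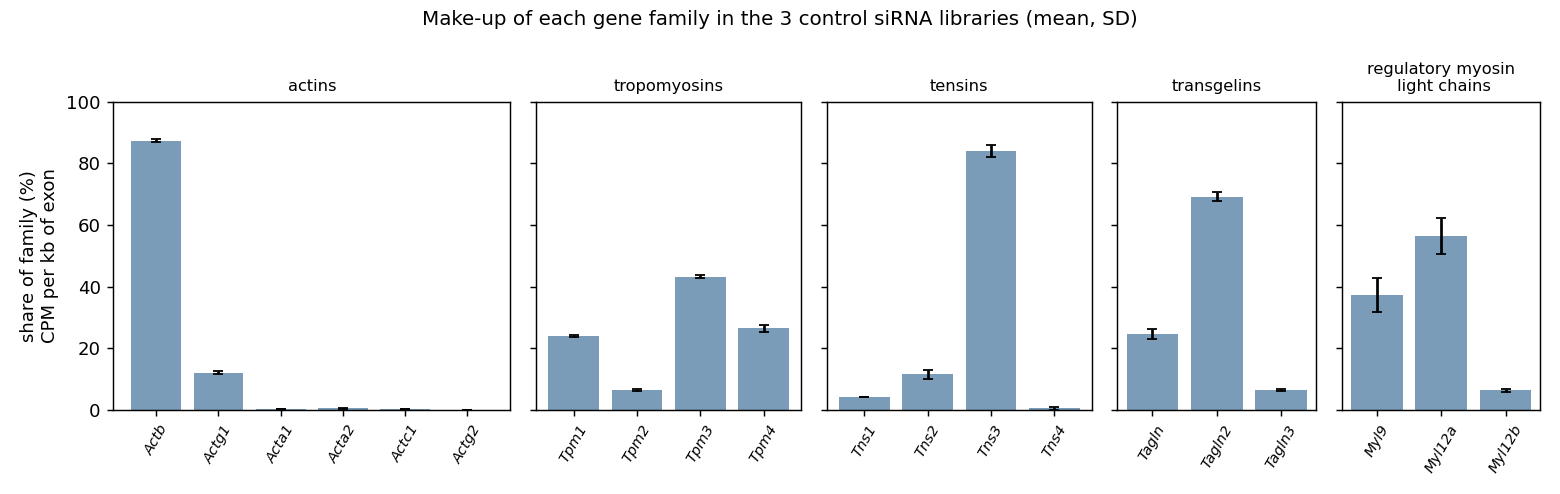
Share of each gene in the CPM per kb of exon of its family (y axis, percent) in the 3 control siRNA libraries; bars are means and lines the SD. Actb, Tns3 and Tagln2 lead their families, while Tpm3 leads the tropomyosins and Myl12a the regulatory light chains, where the level of Myl12b is uncertain.

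Among the tropomyosins, Tpm3 led with 43.2% ± 0.57, followed by Tpm4 at 26.5% ± 1.1 and Tpm1 at 23.9% ± 0.45. Per kb of coding length the order of the last 2 turned, with Tpm1 at 25.8% and Tpm4 at 18.6%. Myl9 held 37.3% ± 5.5 of the regulatory light chains by exon length and 17.4% ± 3.3 by coding length, behind Myl12a in both. The level of Myl12b is uncertain because a second annotated locus of that symbol overlaps it. The shares in this family and the lead of Myl12a are uncertain to that extent. Of the remaining levels per kb, Vcl (28.99 ± 1.56), Tagln2 (28.8 ± 1.92), Tpm4 (27.7 ± 2.47), Tns3 (26.0 ± 1.77), Ctgf (25.2 ± 1.55) and Tpm1 (25.0 ± 0.864) lay within the spread of their neighbours, and Myl9 was lowest at 12.8 ± 2.69.

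The actins come first. Actb lies on chromosome 5 (142903115 to 142906754, minus strand, GRCm38 throughout) and Actg1 on chromosome 11 (120345690 to 120348542, minus). Their coding sequences are the reason to ask whether reads can be told apart. Of 1125 coding nucleotides, 997 (88.6%) were identical between Actb-201 and Actg1-202 (GENCODE M21), and the longest identical run was 62 nucleotides, shorter than the 75-nucleotide read. The first 30 coding nucleotides are shown with the 8 that differ in capitals.
Actb: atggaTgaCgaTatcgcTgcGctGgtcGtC
Actg1: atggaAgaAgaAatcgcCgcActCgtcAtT

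Of all 75-nucleotide words of Actb transcripts, 1.58% were found in another gene, against 33.5% of those of Actg1, which has processed pseudogene copies (Gm12715, Gm8399 and Actg-ps1). The counts of Actg1 are uncertain to that extent.

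Actb stood at 2559, 2694 and 2643 CPM in control, at 2653, 2662, 2742 and 2707 CPM with siRNA 1 and at 2989, 2971, 2721 and 2719 CPM with siRNA 2. The siRNA 1 libraries overlapped control, with 2 of 4 above its highest library. All 4 siRNA 2 libraries lay above control, the lowest at 2719 CPM against a highest control of 2694 CPM. The fitted log2 fold change was 0.03 (SE 0.04) for siRNA 1 and 0.12 (SE 0.04, 1.08-fold) for siRNA 2. Since these are bulk samples, a changed number of cells with high actin and a changed amount of RNA per cell cannot be told apart, here and for every gene below.

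Actg1 stood at 332.9, 375.4 and 369.6 CPM in control, 327.8, 329.9, 357.1 and 367.8 CPM with siRNA 1 and 339.9, 351.5, 339.1 and 343.9 CPM with siRNA 2. Both siRNA groups lay inside or below the control range and overlapped it. Its log2 fold changes were −0.06 (SE 0.05) for each siRNA. By replicate number, the ratio of Actb to Actg1 per kb was 7.63, 7.12 and 7.09 in control and 8.03, 8.01, 7.62 and 7.30 with siRNA 1. With siRNA 2 it was 8.72, 8.39, 7.96 and 7.85. The siRNA 2 libraries were all above control, and the range of siRNA 1 overlapped that of control. The ratio fell with the number in each group, and at each number shared with control the siRNA 1 library was the higher. Whether same-numbered libraries belong together is not given by the labels.

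The adhesion genes followed. Tns3, a scaffold of the adhesions along stress fibres, lies on chromosome 11 (8431652 to 8664535, minus), a span of 232.9 kb that is longer than that of 96.4% of genes tested. It stood at 309.0, 269.6 and 293.1 CPM in control, at 362.5, 360.8, 360.7 and 361.8 CPM with siRNA 1 and at 381.7, 384.1, 396.4 and 384.3 CPM with siRNA 2. The 3 groups did not overlap, and control was below siRNA 1, which was below siRNA 2. Of the 10 genes, Tns3 alone had this order without overlap. Its log2 fold change was 0.32 (SE 0.05, 1.24-fold) for siRNA 1 and 0.41 (SE 0.05, 1.33-fold) for siRNA 2, a difference between the siRNAs of 0.10 (SE 0.04). Over the 19 alternative fits, all of the same libraries, the values against control ran from 0.26 to 0.36 and from 0.36 to 0.46. The difference between the siRNAs was not called at an FDR of 0.05 in the main fit or in any of the 19.

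Vcl encodes vinculin, which reinforces the link of talin to actin under load, and lies on chromosome 14 (20929398 to 21033676, plus). It stood at 226.4, 234.7 and 251.4 CPM in control, 231.5, 233.6, 245.8 and 253.7 CPM with siRNA 1, and 246.3, 267.7, 258.6 and 269.2 CPM with siRNA 2. The siRNA 1 libraries overlapped control, 1 of 4 being above it, and 3 of 4 siRNA 2 libraries were above it. The log2 fold change was 0.02 (SE 0.05) and 0.13 (SE 0.05), the first of which lay between −0.01 and 0.06 over the alternatives and so had no fixed sign. The exons of Vcl overlap Ap3m1 on the other strand over 25.5% of their length; the strand setting of the counting is not given in the sources used here.

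The cross-linkers and filament coats differed from each other. Flna, filamin A, joins filaments into orthogonal networks and lies on chromosome X (74223461 to 74249820, minus). It stood at 1282, 1261 and 1434 CPM in control, 1497, 1428, 1317 and 1414 CPM with siRNA 1 and 1184, 1251, 1392 and 1279 CPM with siRNA 2. All 3 groups overlapped, with log2 fold changes of 0.09 (SE 0.05) and −0.05 (SE 0.05). The value for siRNA 2 ranged from −0.10 to 0.01 over the alternatives. Tagln2, a calponin-family protein that binds filaments, lies on chromosome 1 (172500047 to 172507380, plus). It stood at 55.7, 60.7 and 63.7 CPM in control, 57.1, 63.7, 67.4 and 66.4 CPM with siRNA 1, and 64.6, 66.7, 66.5 and 71.5 CPM with siRNA 2. Only the siRNA 2 libraries were all above control, the lowest at 64.6 CPM against a highest control of 63.7 CPM. The log2 fold changes were 0.09 (SE 0.07) and 0.17 (SE 0.07).

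Tropomyosins coat filaments and set which motors and severing proteins gain access. Tpm1 (chromosome 9, 67022590 to 67049406, minus) stood at 157.2, 160.5 and 168.1 CPM in control, 181.5, 192.2, 189.9 and 185.1 CPM with siRNA 1, and 159.9, 167.9, 166.4 and 181.3 CPM with siRNA 2. Every siRNA 1 library lay above every control and every siRNA 2 library, the closest pair at 181.5 and 181.3 CPM, while siRNA 2 overlapped control. The log2 fold change was 0.21 (SE 0.05, 1.16-fold) for siRNA 1 and 0.06 (SE 0.05) for siRNA 2. Tpm4 (chromosome 8, 72134975 to 72153142, plus) stood at 55.2, 62.2 and 66.0 CPM in control, 65.6, 68.0, 73.2 and 73.6 CPM with siRNA 1 and 75.1, 78.0, 69.2 and 79.4 CPM with siRNA 2. All siRNA 2 libraries were above control, and 3 of 4 siRNA 1 libraries were. The log2 fold change was 0.20 (SE 0.07, 1.15-fold) and 0.31 (SE 0.07, 1.24-fold). The 2 tropomyosins thus differed in which siRNA gave the higher level. Of the 75-nucleotide words of Tpm4, 12.1% were shared with Gm7809 and Gm26586, and none of those of Tpm1.

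Myl9, a regulatory light chain of non-muscle myosin II whose phosphorylation drives contraction, was the least abundant of the 10 and lies on chromosome 2 (156775420 to 156781658, plus). It stood at 11.6, 15.2 and 17.8 CPM in control, 15.9, 14.7, 17.0 and 17.6 CPM with siRNA 1, and 18.2, 24.5, 20.1 and 20.1 CPM with siRNA 2, from 91 to 205 reads per library. The siRNA 1 libraries lay inside the control range, which was wide (coefficient of variation 21.0%), and the siRNA 2 libraries lay above both. The log2 fold change was 0.14 (SE 0.12) and 0.49 (SE 0.12, 1.41-fold). Without control replicate 1, the lowest of the 11, they were −0.01 and 0.34.

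Ctgf, which binds integrins and growth factors in the matrix, lies on chromosome 10 (24595442 to 24598683, plus). It stood at 77.1, 68.6 and 70.7 CPM in control, 64.7, 67.9, 69.9 and 73.4 CPM with siRNA 1, and 78.1, 77.4, 82.5 and 80.6 CPM with siRNA 2. The siRNA 2 libraries were above all others, although the lowest was at 77.4 CPM and the highest control at 77.1 CPM, and siRNA 1 overlapped control from below. The log2 fold change was −0.06 (SE 0.06) and 0.14 (SE 0.06, 1.10-fold). Of its 75-nucleotide words 14.6% lie in Gm15270 on the other strand.

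**Figure D2:**
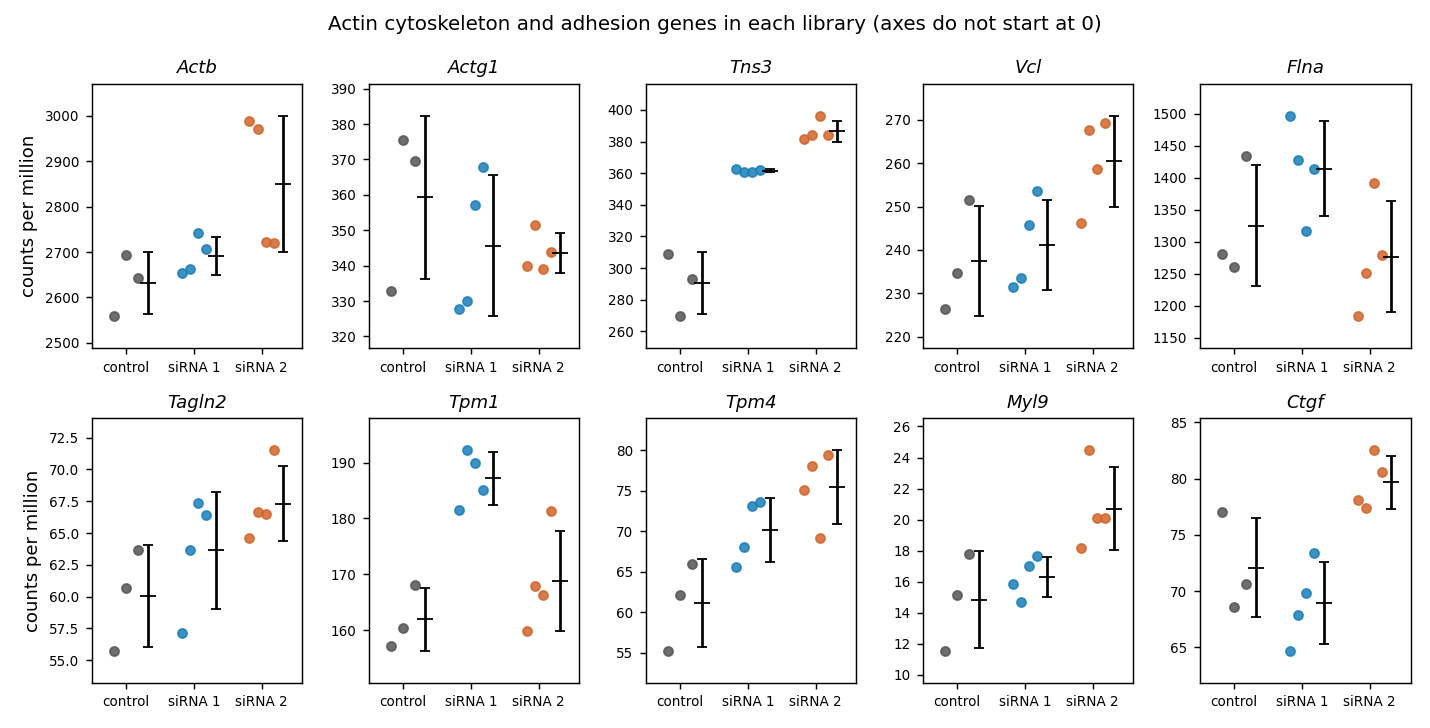
CPM of each of the 10 genes (y axes, which do not start at 0) in every library of control siRNA, CMTR1 siRNA 1 and CMTR1 siRNA 2; points are libraries, and the bar beside them is the mean and SD. Tns3 separates all 3 groups, Tpm1 is above the others with siRNA 1, and Myl9 and Ctgf are above the others with siRNA 2.

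Read together, 8 of the 10 genes had a log2 fold change above 0 with siRNA 1 and 8 with siRNA 2, where 56.8% and 57.1% of all genes tested did. The median over the 10 was 0.09 and 0.14, beside 0.02 and 0.03 over all genes. With siRNA 1, 2 of 10 had libraries that did not overlap control (15.5% of genes tested), both higher (Tns3 and Tpm1; 9.28%), and with siRNA 2, 6 of 10 (19.4%), all higher (Actb, Tns3, Tagln2, Tpm4, Myl9 and Ctgf; 12.4%). For 0 of the 10 were the libraries all lower with either siRNA (6.23% and 6.99% of genes tested). Tns3 was higher without overlap with both siRNAs (3.98%). At an FDR of 0.05 over all genes by edgeR's quasi-likelihood test, 2 of 10 were called with siRNA 1, Tns3 and Tpm1 (4.67% of genes tested), and 3 of 10 with siRNA 2, Tns3, Tpm4 and Myl9 (9.72%). All of these were higher (2.71% of genes tested were called higher and 1.97% lower with siRNA 1, and 6.17% and 3.55% with siRNA 2), and Tns3 was called with both (2.15%). Both comparisons use the same 3 control libraries, and these contrasts chose the genes, so the counts carry no further reading.

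**Figure D3:**
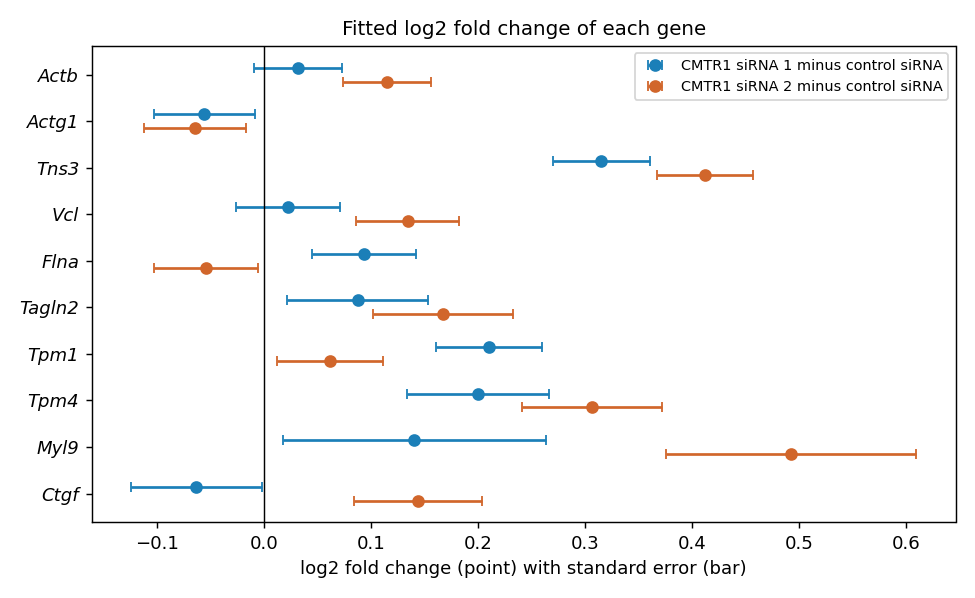
Fitted log2 fold change against control (x axis) of each of the 10 genes for CMTR1 siRNA 1 and siRNA 2; points are the estimates and bars the standard error. Tns3 lies furthest from 0 with siRNA 1 (0.32) and Myl9 with siRNA 2 (0.49), while Actg1 lies below 0 with both and Flna and Ctgf lie on opposite sides of 0.

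Control replicate 1 held the lowest levels. Averaged over the 10 genes as log2 CPM centred on each gene's mean, it stood at −0.17, and control replicates 2 and 3 at −0.11 and −0.02. The siRNA 1 libraries stood at −0.05, −0.03, 0.03 and 0.05, and the siRNA 2 libraries at 0.02, 0.11, 0.07 and 0.10. Control replicate 3 was thus above 2 of the 4 siRNA 1 libraries and below all siRNA 2 libraries. Without control replicate 1 the median log2 fold change of the 10 fell from 0.09 to 0.02 for siRNA 1, where 6 rather than 8 were above 0, and from 0.14 to 0.11 for siRNA 2. In the same setting Myl9 was no longer called with siRNA 2. Leaving out control replicate 3 added calls of Tpm4 with siRNA 1 (0.26) and Vcl with siRNA 2 (0.18), and leaving out siRNA 2 replicate 3 or 4 added Actb with siRNA 2 (0.14 each).

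Between the siRNAs, Tns3, Myl9 and Ctgf had every siRNA 2 library above every siRNA 1 library (6.58% of genes tested) and Tpm1 every one below (5.21%). The log2 differences of siRNA 2 minus siRNA 1 were 0.35 (SE 0.11) for Myl9, 0.21 (SE 0.06) for Ctgf, −0.15 (SE 0.05) for Tpm1 and −0.15 (SE 0.04) for Flna. Of the 10, 7 were above 0 (50.5% of genes tested). These 4 were called at an FDR of 0.05 (7.44% of genes tested), 2 higher (4.49%) and 2 lower (2.96%), and 4 had libraries without overlap (11.8%). The calls leaned on single libraries: none of the 4 remained without siRNA 1 replicate 2, where 0 of 10 genes were called, Tpm1 alone without siRNA 1 replicate 1 and Ctgf alone without siRNA 2 replicate 2. Tpm1 and Flna were both lost without siRNA 1 replicate 4 or siRNA 2 replicate 1, Tpm1 without replicate 3 of either siRNA, and Flna without siRNA 2 replicate 4. DESeq2 did not call Flna or Myl9, and the fit with no filter on low counts did not call Tpm1. Over the 19 alternatives the values ran from 0.26 to 0.41 for Myl9, 0.18 to 0.24 for Ctgf, −0.18 to −0.12 for Tpm1 and −0.19 to −0.11 for Flna.

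Actin was a reference transcript in qPCR assays of the study, so levels relative to Actb are also given. The log2 ratio to Actb differed from control by 0.28 with siRNA 1 and 0.30 with siRNA 2 for Tns3, and by 0.17 and 0.19 for Tpm4. For Tagln2 the values were 0.05 and 0.05, and for Vcl −0.01 and 0.02. Actg1 stood at −0.09 and −0.18. Relative to Actb, Tpm1 (0.18 and −0.05), Flna (0.06 and −0.17) and Ctgf (−0.10 and 0.03) had opposite signs with the siRNAs, as did Vcl, and Myl9 was at 0.12 and 0.38. Since Actb itself was at 0.12 with siRNA 2, all values for siRNA 2 are lower on this scale than against total counts, and that of Tpm1 changed sign.

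The genes whose levels followed most closely were sought among 6042 genes by the root mean square difference of centred log2 CPM over the 11 libraries. For Actb they were Phf23 (0.0244), Pfn1 (0.0265) and Eif3b (0.0275), where the median gene stood at 0.1035. Pfn1 encodes profilin, which delivers monomers to growing filaments. For Tns3 they were Ank2 (0.0484), the adhesion protein gene Lpp (0.0541) and Rims2 (0.0561), with a median of 0.1861. These 3 span 577.7, 599.1 and 486.1 kb, and like Tns3 lie among the longest genes tested. For Ctgf they were Ascc3 (0.0390), Atxn3 (0.0423) and Itch (0.0464), with a median of 0.1344. Ctgf spans 3.2 kb, while Ascc3, Atxn3 and Itch span 258.8, 39.3 and 93.3 kb. Actb spans 3.6 kb, and Phf23, Pfn1 and Eif3b span 4.2, 2.8 and 24.0 kb. Nearness in level thus did not always go with like span. All points share the same libraries and depths.

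Other genes of the same pathways were counted in 8 lists of 124 genes, 122 of which were tested (all but Actg2 and Ankrd1). With siRNA 1, 10 were called higher and 4 lower (11.5%, beside 4.67% of all genes), and with siRNA 2, 18 higher and 3 lower (17.2%, beside 9.72%). The median log2 fold change of the 122 was 0.06 and 0.09, beside 0.02 and 0.03 over all genes. Of the 122, 12 were called in the same direction with both siRNAs, beside 345 of all 16073 genes (2.15%). Both comparisons use the same control libraries. The lists were written with earlier results of these data known, and nothing particular to them is read from these counts. All p-values here measure the spread between libraries. The methods give 3 biological replicates for PCR or sequencing, while each CMTR1 siRNA group holds 4 libraries. The labels do not say which libraries came from separate cultures.

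**Figure D4:**
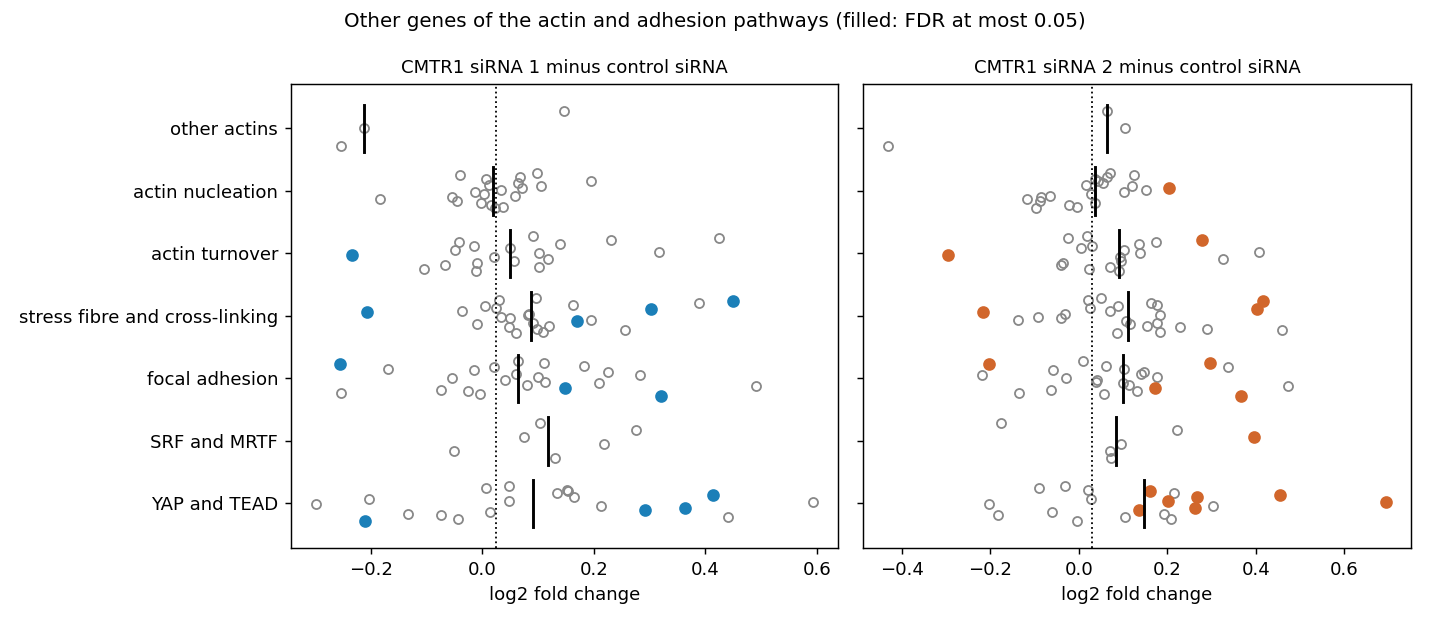
Log2 fold change (x axis) of other genes of the actin and adhesion pathways, by list (7 of the 8 lists), for CMTR1 siRNA 1 (left) and siRNA 2 (right) against control siRNA. Filled points passed an FDR of 0.05 and open points did not. The short bar is the median of the list and the dotted line the median of all genes tested. The called genes of stress fibre and focal adhesion lie on both sides of 0 with each siRNA. Those of actin turnover do so with siRNA 2 only, and those of YAP and TEAD with siRNA 1 only.

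Of the other actins 0 of 3 were called by edgeR with either siRNA, also at an unadjusted p under 0.05 and by DESeq2, and the cardiac form Actc1 was at 1.93 ± 0.348 CPM (SD, n = 3) in control, 1.604 ± 0.107 with siRNA 1 and 1.41 ± 0.442 with siRNA 2 (n = 4 each; FDR 0.732 and 0.403). Of 20 nucleation genes (the Arp2/3 complex, the WAVE complex and formins), 0 were called with siRNA 1 by edgeR or DESeq2 (2 genes had an unadjusted p under 0.05). Only the Arp2/3 subunit Arpc5 was called with siRNA 2 (5.0%, beside 9.72% of all genes). It went from 51.3 ± 0.812 to 59.0 ± 4.10 CPM (log2 fold change 0.20, edgeR FDR 0.0365). That call was lost in 10 of 19 alternatives, DESeq2 and TMM among them, and without any 1 of the control replicates or of siRNA 2 replicates 1, 2 and 4 (0.17 to 0.21).

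Of 19 turnover genes, 1 fell with siRNA 1, and 1 rose and 1 fell with siRNA 2. These are 5.26% and 10.5%, beside 4.67% and 9.72% of all genes. DESeq2 called 1 with each siRNA. The gene that fell with both was Limk2, a kinase that inactivates cofilin, at 65.1, 73.3 and 74.3 CPM in control, 60.1, 57.7, 59.96 and 63.4 CPM with siRNA 1, and 56.0, 54.9, 58.4 and 61.5 CPM with siRNA 2. Both siRNA groups were below control in every library, with log2 fold changes of −0.23 (SE 0.06, edgeR FDR 0.0197) and −0.30 (SE 0.06, FDR 0.00133). The first call was lost without control replicate 2 or 3 or siRNA 1 replicate 2 (−0.20 to −0.21). The capping protein Capza1, chosen after its values were seen, is the 1 that rose with siRNA 2 (0.28, FDR 0.0167), a call lost with DESeq2 (0.25) and without control replicate 2 (0.23) or siRNA 2 replicate 1 (0.26).

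Of 24 stress fibre and cross-linking genes, 3 rose and 1 fell with siRNA 1, and 2 rose and 1 fell with siRNA 2. These are 16.7% and 12.5%, beside 4.67% and 9.72% of all genes. DESeq2 called 1 with siRNA 1 and 3 with siRNA 2. Cald1, caldesmon, which inhibits myosin on tropomyosin-coated filaments, was at 55.7, 43.8 and 50.1 CPM in control, 70.5, 65.2, 67.2 and 69.5 CPM with siRNA 1, and 62.2, 65.5, 65.7 and 72.1 CPM with siRNA 2. All 8 siRNA libraries were above control. The log2 fold changes were 0.45 (SE 0.07, edgeR FDR 3.4e-05) and 0.42 (SE 0.07, FDR 5.47e-05), called in all 19 alternatives.

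Flnc, the muscle filamin, was at 269.3, 249.0 and 298.1 CPM in control, 390.6, 356.3, 298.2 and 297.6 CPM with siRNA 1, and 353.6, 372.0, 375.6 and 337.3 CPM with siRNA 2. Only the siRNA 2 libraries cleared the control range. The log2 fold changes were 0.30 (edgeR FDR 0.00199) and 0.40 (FDR 2.2e-05), the first lost with DESeq2 (0.28) and without control replicate 2 (0.24). The third gene to rise with siRNA 1 was the essential light chain Myl6 (0.17, FDR 0.0489), named after its values were seen. Its call was lost in 10 of 19 alternatives, among them TMM and DESeq2 (0.15 each) and the removal of any 1 control replicate, of siRNA 1 replicate 1, 2 or 3 or of siRNA 2 replicate 1 (0.14 to 0.19). Lima1, which bundles and stabilises filaments, fell by 0.21 and 0.22 on the log2 scale (edgeR FDR 0.0459 and 0.0211). The first call was lost with DESeq2, with no filter on low counts, without control replicate 1 or 3 and without any 1 of the siRNA 1 replicates (−0.13 to −0.23), and the second without control replicate 3 or siRNA 2 replicate 1 (−0.14 and −0.18).

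Of 23 focal adhesion genes, 2 rose and 1 fell with siRNA 1, and 3 rose and 1 fell with siRNA 2. These are 13.0% and 17.4%, beside 4.67% and 9.72% of all genes. DESeq2 called 1 with siRNA 1 and 2 with siRNA 2. Enah, an actin polymerase that Zyxin recruits, was at 811, 817 and 819 CPM in control, 651, 659, 712 and 711 CPM with siRNA 1, and 676, 664, 740 and 756 CPM with siRNA 2. Every siRNA library was below the narrow control range, with log2 fold changes of −0.26 (SE 0.05, edgeR FDR 0.000214) and −0.20 (SE 0.05, FDR 0.00219), called in all 19 alternatives. Zyx itself, zyxin, was at 85.3, 68.6 and 82.4 CPM in control, 102.2, 110.9, 86.9 and 92.8 CPM with siRNA 1, and 104.8, 119.7, 91.0 and 89.9 CPM with siRNA 2. All siRNA libraries were above control, some by a few CPM. The log2 fold changes were 0.32 (edgeR FDR 0.00996) and 0.37 (FDR 0.00157), both lost with DESeq2 (0.29 and 0.34) and the first also without control replicate 2 (0.23) or siRNA 1 replicate 2 (0.25).

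Tln1, talin, which activates integrins and binds vinculin, rose by 0.15 and 0.17 (edgeR FDR 0.0407 and 0.00854), from 419 ± 16.5 CPM in control to 464 ± 14.8 and 472 ± 20.3 CPM. The first call was lost with TMM and DESeq2, and without control replicate 1 or 2 or siRNA 1 replicate 1, 2 or 4 (0.12 to 0.15), and the second without control replicate 1 (0.14). The third gene to rise with siRNA 2 was Csrp1 (0.30, edgeR FDR 0.00731; not called by DESeq2, 0.27, FDR 0.0603), named after its values were seen. Beside these, Tns3 and Vcl belong to the same structures.

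Rac1, a further pathway gene, which drives lamellipodia, was at 110.0, 107.2 and 109.2 CPM in control, 125.1, 139.6, 150.0 and 131.8 CPM with siRNA 1, and 163.1, 155.4, 145.9 and 148.7 CPM with siRNA 2. Its control libraries were close together and all 8 siRNA libraries above them. The log2 fold changes were 0.33 (SE 0.06, edgeR FDR 0.000132) and 0.49 (SE 0.06, FDR 2.85e-08), called in all 19 alternatives.

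Of 6 SRF and MRTF genes, 0 were called with siRNA 1 by edgeR or DESeq2 (2 had unadjusted p-values under 0.05). With siRNA 2, 1 was called (16.7%, beside 9.72% of all genes). That gene, Fhl3, a LIM-only cofactor, was at 22.9, 21.3 and 25.3 CPM in control, 25.8, 26.2, 20.6 and 24.9 CPM with siRNA 1, and 29.8, 33.0, 31.95 and 26.8 CPM with siRNA 2. The siRNA 2 libraries were all above the others, with a log2 fold change of 0.40 (SE 0.09, edgeR FDR 0.00352), against 0.07 (SE 0.10, FDR 0.764) for siRNA 1.

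Of 20 YAP and TEAD genes, 3 rose and 1 fell with siRNA 1, and 7 rose with siRNA 2. Ptpn14, a phosphatase that holds YAP in the cytoplasm, was at 143.2, 149.4 and 154.9 CPM in control, 203.3, 199.3, 177.6 and 187.9 CPM with siRNA 1, and 185.7, 182.5, 174.6 and 172.7 CPM with siRNA 2. All 8 siRNA libraries were above control, by 0.36 (SE 0.05, edgeR FDR 6.56e-06) and 0.26 (SE 0.05, FDR 0.000498) on the log2 scale, called in all 19 alternatives.

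Tead1, a DNA-binding partner of YAP, rose from 315 ± 13.0 CPM to 386 ± 7.35 CPM with siRNA 1 (0.29, SE 0.04, edgeR FDR 2.29e-05) and 346 ± 12.2 CPM with siRNA 2 (0.14, edgeR FDR 0.0432). The second call was lost in 14 of 19 alternatives, among them TMM, DESeq2 and the removal of any 1 control replicate (0.10 to 0.16), of siRNA 1 replicate 2 or 4 (0.14) or of siRNA 2 replicate 1, 3 or 4 (0.11 to 0.14). Crim1, a membrane protein gene of the YAP target list, went from 11.9 ± 0.423 to 15.8 ± 0.806 and 16.3 ± 0.898 CPM (0.41, edgeR FDR 0.0192, and 0.45, FDR 0.00483). Its first call was lost with DESeq2, and without control replicate 2 or 3 or siRNA 1 replicate 2 (0.38 to 0.41). The gene that fell with siRNA 1 was Yap1 itself (−0.21, FDR 0.00377; 0.00, FDR 0.969 with siRNA 2), a call at the limit without control replicate 2 (−0.19, FDR 0.0501). Cyr61, the close relative of Ctgf, rose with siRNA 2 (0.27, edgeR FDR 0.0102; not called by DESeq2, 0.24, FDR 0.0754) and stood at 0.16 (FDR 0.214) with siRNA 1. The remaining 3 that rose with siRNA 2 restrain YAP: the kinases Lats1 (0.20, FDR 0.0249) and Lats2 (0.69, FDR 0.0318) phosphorylate it and Amotl2 (0.16, FDR 0.0319) retains it in the cytoplasm. DESeq2 called none of these 3 (FDR 0.147, 0.142 and 0.134), and Lats2 rests on 17 to 39 reads per library. The Lats1 call was also lost with TMM, with no filter on low counts, and without any 1 control replicate or siRNA 2 replicate 4 (0.18 to 0.22). The Lats2 call was lost without control replicate 2 or 3 or siRNA 2 replicate 1 or 4 (0.58 to 0.71). The Amotl2 call was lost with TMM, with no filter on low counts, and without control replicate 2 or 3 or siRNA 2 replicate 3 or 4 (0.13 to 0.16). Yap1, Cyr61, Lats1, Lats2 and Amotl2 were named after their values were seen.

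Between the siRNAs, 11 of the 122 pathway genes were called, 10 higher and 1 lower with siRNA 2 (9.02%, beside 7.44% of all genes). Rac1 (0.16, edgeR FDR 0.0369), Fhl3 (0.32, FDR 0.0138) and, in the other direction, Tead1 (−0.16, FDR 0.011) were among them, as was Yap1 (0.21, FDR 0.00162). The Rac1 libraries of the siRNAs overlapped, and its call was lost in 6 of 19 alternatives: DESeq2 (FDR 0.099), and without siRNA 1 replicate 1, 2 or 4 or siRNA 2 replicate 1 or 2 (0.13 to 0.17, FDR up to 0.172). That of Fhl3 was lost without siRNA 1 replicate 3 or siRNA 2 replicate 2 (0.25 and 0.27, FDR up to 0.0732). Within the 10 genes the differences were of like size, from −0.15 for Tpm1 to 0.35 for Myl9.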

How the data were processed

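RNA of E14 ESCs was rRNA-depleted and made into libraries with a directional kit. According to the methods, the authors trimmed reads with cutadapt, aligned them to GRCm38 with STAR, used Picard to discard duplicates and featureCounts to count; the deposited counts are whole reads per Ensembl gene, with summary lines in an HTSeq-like layout in 10 of 11 files, set aside here. Strand setting and versions are not given in the sources used here. Genes above 1 CPM in at least 4 libraries (16073) were tested with edgeR 4.0.16 (R 4.3.3, glmQLFit and glmQLFTest) on a model of the 3 groups, with library sizes as total counts, since the methods normalise to library size. A gene was called at a Benjamini-Hochberg FDR of 0.05 over all genes. One gene, Gm26917, took 4.87 to 6.34% of counts. Libraries of 6738478 to 8382318 reads gave 91 to 24906 reads for each of the 10 genes. Spread is given as the SD between libraries or the SE of the fit, and both include counting error.

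Alternatives were TMM factors, DESeq2 1.42.0, exactTest, no filter, filterByExpr, 2 groups alone, a replicate block, Gm26917 left out of library sizes and each of 11 libraries left out (19 fits), and a genomic span trend added after seeing the data. The 10 genes, the pathway and marker lists and the tests were chosen with earlier results of these data known. Pathway genes were named as the 4 or fewer per list with the smallest FDR among those called with both siRNAs in 1 direction, or otherwise the single gene with the smallest FDR. The code was tested on simulated data. RefSeq promoters (GRCm38.p6) and GENCODE M21 transcripts gave sequences, and Python 3.11.15 the tables and figures. The make-up of 1 gene family and the counts of 1 pathway list are not reported here, but the list is in the pathway totals.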

Additional observations from a re-analysis of the deposited data

Results flagged for a closer look

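In the groups of 4 libraries, the value farthest from its neighbours relative to the range was that of Tln1 in CMTR1 siRNA 2 replicate 2, at 501.89 CPM, above the Dixon 95% limit of 0.829 for 4 values. Of 50 groups checked this was the 1 past the limit, where chance gives about 1 in 20 groups. The siRNAs differed from each other in 3 named pathway genes by edgeR's quasi-likelihood test of siRNA 2 minus siRNA 1: Rac1 (log2 difference 0.1637, FDR 0.0369), Fhl3 (0.3204, FDR 0.0138) and Tead1 (−0.1571, FDR 0.011). The Rac1 call was lost in 6 of 19 alternatives (FDR up to 0.172) and the Fhl3 call in 2 (FDR up to 0.0732).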

How the results depend on the processing

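With DESeq2 the genes called numbered 450 with siRNA 1 (170 higher, 280 lower), 874 with siRNA 2 (390, 484) and 674 between the siRNAs, against 751 (435, 316), 1562 (991, 571) and 1196, and the pathway genes called 8, 10 and 6 against 14, 21 and 11. With TMM the calls split 346 higher and 400 lower with siRNA 1, and 728 and 734 with siRNA 2. Leaving out single libraries gave 355 to 850, 807 to 1667 and 724 to 1374 genes called (lowest without control replicate 2, control replicate 3 and siRNA 1 replicate 2), 8 to 15, 14 to 23 and 5 to 13 pathway genes, and medians of the 10 genes of 0.0246 to 0.1421 (lowest without control replicate 1), 0.1088 to 0.1561 and 0.0767 to 0.1018. With a replicate block the counts were 840, 1486 and 1242, the pathway counts 16, 18 and 12, and the medians 0.0779, 0.1252 and 0.0895. Over all genes tested, same-numbered libraries correlated at −0.05 to 0.06 and other pairs at −0.06 to 0.07. No pairing by number was seen on that scale. Pairing in single genes was not tested, and the ratio of Actb to Actg1 fell with the number in each group. Removing the span trend left medians of 0.0895, 0.1195 and 0.0836. For the pathway genes chosen by the naming rule, 510 values against control kept their direction and side of the threshold. A further 60 kept their direction but were no longer called. These numbers include the list not reported here. They leave out the genes named after their values were seen, whose lost calls are given with each gene. No direction of a called gene reversed in these alternatives, and the cause of the lost calls was not tested. Of the 10 genes Myl9 had the fewest reads, 91 to 205 per library.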

Other observations

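Gene span and fold change can be set beside the Tns3 values. The 726 genes tested that span at least 200 kb had median log2 fold changes of 0.09 (siRNA 1) and 0.07 (siRNA 2), and the 3610 genes under 5 kb 0.02 and −0.01. With the span trend over all genes removed, Tns3 stood at 0.25 and 0.36 in place of 0.32 and 0.41, Vcl at 0.00 and 0.10, Actb at 0.02 and 0.11 and Ctgf at −0.08 and 0.13. Ank2, Lpp and Rims2, whose levels followed Tns3 most closely, had log2 fold changes of 0.35, 0.26 and 0.32 with siRNA 1 and 0.42, 0.36 and 0.38 with siRNA 2 (edgeR FDR at most 0.00116 and 4.57e-05). They were picked for that closeness in these same libraries, so their fold changes and FDRs follow from the choice and test nothing. The part of span in these differences was not tested further.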
